A study of Mus musculus with 16 samples.

Results

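The maturation and reactive markers of astrocytes, 10 genes that are read as signs of how far an astrocyte has matured, or of a reactive state, were followed through RNA-seq libraries of sorted cells from the mouse neocortex at postnatal day 4 (P4). The 10 genes were found by their mouse symbols among the 53379 genes counted in each file, and each matched 1 gene. They were weighed as 4 immature genes (Vim, Nes, Fabp7 and Tnc), 3 mature genes (S100b, Aldh1l1 and Gfap) and 3 reactive genes (S100a10, S100a6 and Cd44), with Gfap also counted among the reactive genes in 1 balance. Cells came from mice that the labels give as CD1 and the study's methods as mixed between C57BL/6 and CD1, in which mosaic analysis with double markers (MADM) on chromosome 7, driven by Emx1-Cre in cortical progenitors and the cells they give rise to, labels sparse cells and ties their colour to their genotype. Every animal also carried the XGFAP-lacZ transgene, with lacZ under the human GFAP promoter, and in every group the sorted cells were green. Green cells were Eed+/+ in control-MADM animals (genotype label wt) and Eed-/- in Eed-MADM animals (genotype label het), where most surrounding cells keep 1 working copy of Eed. Eed encodes a subunit that PRC2, a Polycomb complex, needs to place its repressive mark on histone H3. The lacZ+ cells among them went into the astrocyte libraries and the lacZ- cells into the neuron libraries, each from 1 animal. The groups held 5 Eed+/+ astrocyte, 5 Eed-/- astrocyte, 2 Eed+/+ neuron and 3 Eed-/- neuron libraries, and 1 further library with conflicting cell type labels entered no comparison.

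Astrocytes of the cortex arise from radial glia, which are built around the intermediate filament proteins vimentin and nestin and carry the fatty acid binding protein encoded by Fabp7. As astrocytes mature, these genes fall while S100b, Aldh1l1 and Gfap rise. After injury or inflammation astrocytes become reactive, a state in which Gfap and Vim rise again and in which S100a10, S100a6 and Cd44 are commonly used as markers. Gfap therefore belongs to both the mature and the reactive side, and Vim to both the immature and the reactive side.

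Sequences just upstream of Fabp7 and S100b are shown, because Fabp7 had the highest level per kilobase of the 10 genes in each group and S100b was the mature gene with the clearest split between genotypes in well aligned astrocyte libraries. Each run holds the bases before the RefSeq start (GRCm38.p6, a window of 250 bases) that also lie before the first base of the gene in GENCODE, read 5′ to 3′ on the strand of the gene. The Fabp7 run is chr10:57784673-57784880 (208 bases, plus strand) and the S100b run chr10:76253586-76253835 (250 bases, plus strand). Capitals mark every match, on either strand, to 1 of the 6 searched motifs.
Fabp7: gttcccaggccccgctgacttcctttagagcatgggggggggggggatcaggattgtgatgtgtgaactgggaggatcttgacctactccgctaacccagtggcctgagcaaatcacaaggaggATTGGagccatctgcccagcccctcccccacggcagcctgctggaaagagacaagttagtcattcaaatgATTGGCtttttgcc
S100b: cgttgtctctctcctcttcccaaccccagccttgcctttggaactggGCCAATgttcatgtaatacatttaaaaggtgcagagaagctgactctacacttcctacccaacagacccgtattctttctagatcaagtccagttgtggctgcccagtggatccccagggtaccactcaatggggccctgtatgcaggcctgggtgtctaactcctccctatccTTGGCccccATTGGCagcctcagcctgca
Of the 6 motifs, TATAAA was found in 12.4% of the 32851 mouse windows of the same length, CCAAT in 33.8%, GGGCGG in 32.7%, TTGGC in 41.5%, TGACTCA in 4.46% and TTCNNNGAA in 7.02%. Promoter windows were present for 9 of the 10 members, and those of Vim, Gfap and Aldh1l1 fall inside the gene as GENCODE gives it. Among these 9, CCAAT was found in 5, TTGGC in 4, GGGCGG in 3, TATAAA in 2, and TGACTCA and TTCNNNGAA in 0. A CCAAT match overlapped a TTGGC match on the other strand, giving the 6 letters GCCAAT (either strand), in the windows of 3 of the 9 members (Fabp7, S100b and Vim) and in 13.5% of all windows. The overlap starts 56 bases before the RefSeq start in Fabp7, 203 and 20 bases before it in S100b, and 94 bases before it in Vim. This overlap was singled out after the runs had been seen.

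Depth and alignment set the precision of every value below. Gene counts per library ranged from 211736 to 3178529, and 5 of the 15 libraries had under 60% or under 1000000 uniquely aligned reads. Those 5 were Eed+/+ astrocyte replicate 3, Eed-/- astrocyte replicates 1, 3 and 4, and Eed+/+ neuron replicate 2. They held between 211736 and 477760 gene counts and between 2959 and 12261 detected genes, against 11433 to 18064 detected genes in the other 10. Because 3 of 5 Eed-/- but 1 of 5 Eed+/+ astrocyte libraries lay outside these limits, alignment quality moved with genotype, and values from the 10 libraries within the limits (4, 2, 1 and 3 per group) are given beside the main ones for the comparisons of members. Levels are given as TMM-scaled CPM, which are reads per 1000000 gene reads after the library totals were rescaled by the trimmed mean of M values. A count of 3 reads corresponded to between 1.12 and 9.36 CPM, depending on the library.

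The deleted gene, Eed, was checked first. Its level over the 5 Eed+/+ astrocyte libraries, in order of replicate number here and below, was 46.1, 76.2, 3.71, 39.2 and 28.4 CPM, and over the Eed-/- astrocytes it was 0, 17.3, 0, 0 and 14.2 CPM. In neurons it stood at 64.9 and 81.1 CPM in Eed+/+ cells and at 16.4, 38.0 and 33.4 CPM in Eed-/- cells. The 3 zeros were the 3 poorly aligned Eed-/- astrocyte libraries. These are counts over the whole gene and do not separate the deleted exons from the rest.

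Markers of other cell types were present in some libraries. The 5 astrocyte markers (Aqp4, Aldoc, Slc1a2, Slc1a3 and Gja1) summed to between 11018 and 18139 CPM in the well aligned Eed+/+ astrocytes and to 20713 and 7718 CPM in the well aligned Eed-/- astrocytes. In the poorly aligned astrocyte libraries they summed to 2330 CPM (Eed+/+ replicate 3) and to 1340, 10542 and 4004 CPM (Eed-/- replicates 1, 3 and 4). They still summed to between 4992 and 7041 CPM in the 5 neuron libraries, with all 5 markers detected in each neuron library. The 8 neuron markers summed to between 0 and 3784 CPM in the astrocyte libraries and to between 1042 and 2678 CPM in the neuron libraries. Thus the lacZ- libraries labelled as neurons held astrocyte transcripts, and the summed neuron markers did not separate the cell types.

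**Figure D1:**
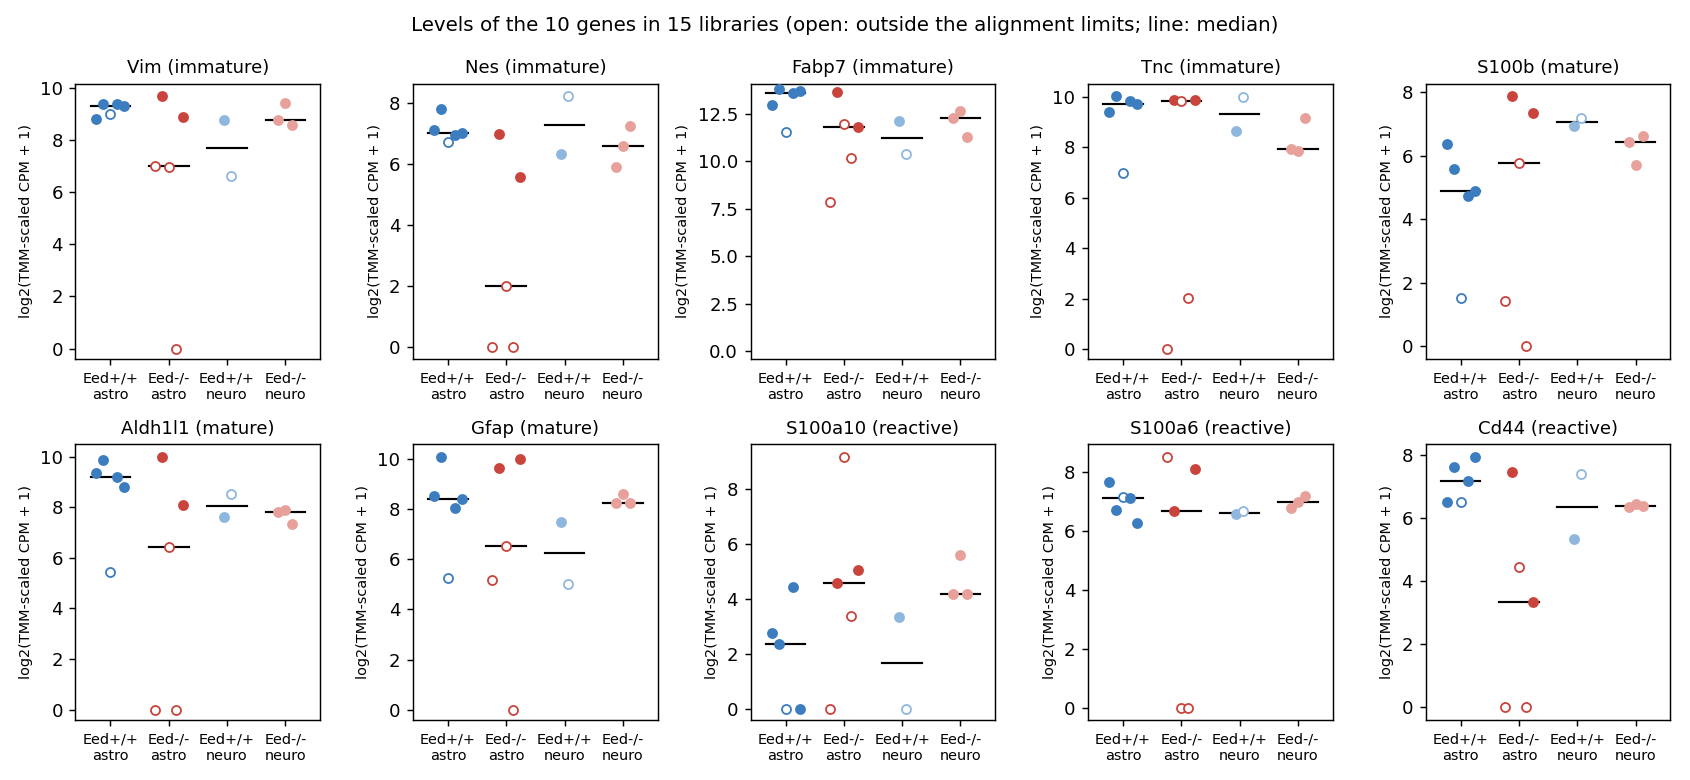
Level of each of the 10 genes in each of the 15 libraries, as log2(TMM-scaled CPM + 1) on the vertical axis, by group on the horizontal axis. Filled points are libraries within the alignment limits, open points are the 5 libraries outside them, and lines are group medians. The open points of Eed-/- astrocytes are spread widely, from 228 to 3929 CPM for Fabp7 and from 0 to 570 CPM for S100a10, and the filled S100b points of Eed-/- astrocytes lie above those of Eed+/+ astrocytes.

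Fabp7 dominated the set. Per kilobase of merged exons, a scale on which genes can be compared with each other, the median level in Eed+/+ astrocytes was 9732 for Fabp7, 131 for Vim, 128 for Aldh1l1, 108 for Tnc, 101 for S100a6, 81.1 for Gfap, 21.2 for Cd44, 20.0 for Nes, 19.1 for S100b and 3.39 for S100a10. In that order, Fabp7 was the 1 gene whose range over the 5 libraries did not overlap that of the next gene. In well aligned Eed-/- astrocytes Fabp7 again led, at a median of 6597 CPM per kilobase, followed by Gfap at 216, Aldh1l1 at 142, S100a6 at 135, Vim at 135 and S100b at 133. Fabp7 also led in Eed+/+ neurons, at 2312, and in Eed-/- neurons, at 4028 CPM per kilobase. Its share of the summed level per kilobase of the 10 genes ranged from 37.8% in Eed-/- astrocyte replicate 1 to 99.1% in Eed-/- astrocyte replicate 4, with 11 of 15 libraries between 80.2% and 95.1%.

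Loss of Eed in astrocytes was the first comparison. With edgeR's quasi-likelihood test and Benjamini-Hochberg adjustment, 0 of 8956 genes passed an adjusted p of 0.05 (0% called), 0 passed 0.2, and 108 passed 0.05 before adjustment. On the same counts DESeq2 called 1 gene and limma-voom 0. The 10 members were tested and 0 were called, with adjusted p = 0.9999 for each. Their log2 fold changes (Eed-/- minus Eed+/+) ran from -1.99 to 4.47 with standard errors of 0.72 to 1.65, and their median was -0.60 against -0.54 over the genes tested, so the typical member sat where the typical gene sat. The median over the genes tested was -0.37 under another scaling (RLE). No member separated the 5 Eed-/- from the 5 Eed+/+ libraries (0 of 10, against 1.73% of genes tested), while in plain CPM, a scale added after the data had been seen, 1 did (Nes, against 1.89%). Over the libraries within the limits (2 against 4), edgeR again called 0 genes, with 488 at an unadjusted p under 0.05, and 2 of the 10 members (S100b and S100a10) separated the genotypes, against 14.5% of genes tested. In plain CPM the 2 were S100b and Nes (against 14.2%). In these bulk samples, fewer cells of a type and less RNA per cell cannot be told apart.

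Among the immature genes, Fabp7 (ENSMUSG00000019874.11, chr10:57784881-57788450, plus strand) stood at 7992, 14175, 2939, 12165 and 13330 CPM in Eed+/+ astrocytes. In Eed-/- astrocytes it stood at 228, 12881, 3929, 1162 and 3612 CPM. The groups overlapped, and the well aligned Eed-/- replicate 2 reached the upper Eed+/+ values while the well aligned replicate 5 lay below the well aligned Eed+/+ libraries. The log2 fold change was -1.16 ± 0.72 (SE) over all libraries and -0.52 ± 0.52 within the limits (adjusted p = 0.9999 and 0.9998, edgeR).

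Vim, the vimentin gene (ENSMUSG00000026728.9, chr2:13573927-13582826, plus strand), stood at 442, 664, 511, 666 and 623 CPM in Eed+/+ astrocytes. In Eed-/- astrocytes it stood at 127, 812, 124, 0 and 469 CPM. The 3 low values were the 3 poorly aligned libraries, and the other 2 lay inside or above the Eed+/+ range. Its log2 fold change was -0.90 ± 1.11 over all libraries and 0.11 ± 0.35 within the limits, so its sign changed with the libraries kept.

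Nes, which encodes nestin, the filament protein of neural stem cells (ENSMUSG00000004891.16, chr3:87971078-87980451, plus strand), stood at 138, 224, 104, 125 and 128 CPM in Eed+/+ astrocytes and at 0, 127, 2.95, 0 and 46.5 CPM in Eed-/- astrocytes. Replicate 2 was the 1 Eed-/- library inside the Eed+/+ range, and in plain CPM no Eed-/- library was. Nes had a log2 fold change of -1.99 ± 1.44 over all libraries and -0.81 ± 0.50 within the limits.

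Tnc, which encodes the matrix glycoprotein tenascin C of the germinal zones (ENSMUSG00000028364.15, chr4:63959785-64047015, minus strand), stood at 669, 1040, 124, 922 and 840 CPM in Eed+/+ astrocytes and at 0, 933, 918, 3.09 and 943 CPM in Eed-/- astrocytes. The well aligned libraries of both genotypes lay between 669 and 1040 CPM. For Tnc the log2 fold change was -0.30 ± 1.04 over all libraries and 0.12 ± 0.31 within the limits, which is the smallest standard error of any member in this comparison.

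Among the mature genes, S100b encodes a calcium-binding protein of maturing astrocytes that cells of the oligodendrocyte lineage also make (ENSMUSG00000033208.7, chr10:76253853-76261159, plus strand). It stood at 82.2, 46.7, 1.86, 25.4 and 28.4 CPM in Eed+/+ astrocytes and at 1.69, 233, 53.1, 0 and 161 CPM in Eed-/- astrocytes. Over all libraries the groups overlapped and the log2 fold change was 1.32 ± 1.47. Within the limits both Eed-/- libraries, at 161 and 233 CPM, lay above the 4 Eed+/+ libraries, which ranged from 25.4 to 82.2 CPM. There the log2 fold change was 2.12 ± 0.52, with an unadjusted p of 0.0030 and an adjusted p of 0.9998 (edgeR). DESeq2 on the same 6 libraries, an alternative added after the data had been seen, gave 2.16 ± 0.63 with an adjusted p of 0.11, while calling 14 of 12070 genes at 0.05 (0.116%). Within the limits S100b thus had the largest difference of the 10 members relative to its error in the edgeR fit, and it did not pass the 0.05 threshold in either fit. The 5 oligodendrocyte lineage markers (Pdgfra, Olig1, Olig2, Sox10 and Cspg4) summed to 4361 and 2717 CPM in these 2 Eed-/- libraries and to between 1323 and 3107 CPM in the 4 Eed+/+ libraries, with between 3 and 5 markers detected, and their part in the S100b values was not tested.

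Aldh1l1, a folate enzyme used as a general astrocyte marker (ENSMUSG00000030088.15, chr6:90486427-90600203, plus strand), stood at 647, 920, 42.7, 578 and 443 CPM in Eed+/+ astrocytes. In Eed-/- astrocytes it stood at 0, 1009, 85.6, 0 and 273 CPM, so that the 2 well aligned libraries lay on either side of the range of the well aligned Eed+/+ libraries. The log2 fold change was -0.91 ± 1.13 over all libraries and close to 0 within the limits (SE 0.52).

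Gfap, which encodes the glial fibrillary acidic protein (ENSMUSG00000020932.14, chr11:102887336-102900912, minus strand), stood at 363, 1080, 37.1, 261 and 342 CPM in Eed+/+ astrocytes and at 35.5, 805, 91.5, 0 and 1019 CPM in Eed-/- astrocytes. The well aligned Eed-/- libraries (805 and 1019 CPM) were matched by 1 Eed+/+ library, replicate 2, and lay above the other 3 well aligned ones. Gfap had a log2 fold change of -0.05 ± 1.12 over all libraries, 0.02 under RLE scaling, and 0.84 ± 0.55 within the limits (unadjusted p = 0.16, edgeR). Relative to the median of the genes tested it was 0.48 over all libraries and 0.86 within the limits.

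Among the reactive genes, S100a10 encodes a small partner of annexin A2 (ENSMUSG00000041959.14, chr3:93555080-93564643, plus strand). It stood at 5.76, 4.11, 0, 20.3 and 0 CPM in Eed+/+ astrocytes and at 0, 22.6, 570, 9.27 and 32.4 CPM in Eed-/- astrocytes. The log2 fold change of 4.47 ± 1.65 was the largest of the 10, with an unadjusted p of 0.0068 and an adjusted p of 0.9999 (edgeR). Eed-/- replicate 3, a poorly aligned library, carried 193 of the group's 262 reads, and within the limits the difference was 1.86 ± 1.54. There the 2 Eed-/- libraries (34 and 32 reads) lay above the 4 Eed+/+ libraries (0 to 44 reads) in TMM-scaled CPM, but in plain CPM replicate 2 (18.0) lay just under Eed+/+ replicate 4 (18.3). In replicate 3 the 5 fibroblast markers (Col1a1, Col1a2, Col3a1, Dcn and Lum) summed to 2037 CPM with 5 of 5 detected, against 3.38 to 269 CPM in the other Eed-/- astrocytes and 9.23 to 101 CPM in Eed+/+ astrocytes. In the same library the 6 microglia markers summed to 2143 CPM with 6 of 6 detected. The cells were sorted as green and lacZ+ after Emx1-Cre. How far this gate kept out fibroblasts and microglia was not tested, nor was the part of their transcripts in the S100a10 value.

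S100a6, another small calcium-binding protein gene (ENSMUSG00000001025.8, chr3:90612882-90624181, plus strand), stood at 202, 103, 141, 138 and 75.5 CPM in Eed+/+ astrocytes and at 362, 100, 0, 0 and 270 CPM in Eed-/- astrocytes. The highest value came from Eed-/- replicate 1. In that library the 6 microglia markers (Cx3cr1, Csf1r, C1qa, C1qb, P2ry12 and Tmem119) summed to 6237 CPM with 6 of 6 detected, and the 5 erythroid markers to 5723 CPM, while the 8 neuron markers were at 0. In Eed+/+ astrocytes the microglia markers summed to between 0 and 288 CPM. In the second highest, replicate 5, microglia and erythroid markers were at 0. The log2 fold change was 0.22 ± 1.30 over all libraries and 0.52 ± 0.51 within the limits, and without replicate 1 it was -0.49. The part of the other cells in these values was not tested.

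Cd44, which encodes a receptor for hyaluronan (ENSMUSG00000005087.17, chr2:102811141-102901665, minus strand), stood at 89.0, 194, 89.1, 143 and 242 CPM in Eed+/+ astrocytes and at 0, 175, 20.7, 0 and 9.1 CPM in Eed-/- astrocytes. Replicate 2 was the 1 Eed-/- library inside the Eed+/+ range, and the well aligned replicate 5, with 9 reads, lay below it. For Cd44 the log2 fold change was -1.85 ± 1.42 over all libraries and -0.84 ± 0.89 within the limits. The 3 reactive genes thus did not move as a group, with S100a10 higher, Cd44 lower and S100a6 close to level in fitted value, and none past the test (adjusted p = 0.9999 for each).

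**Figure D2:**
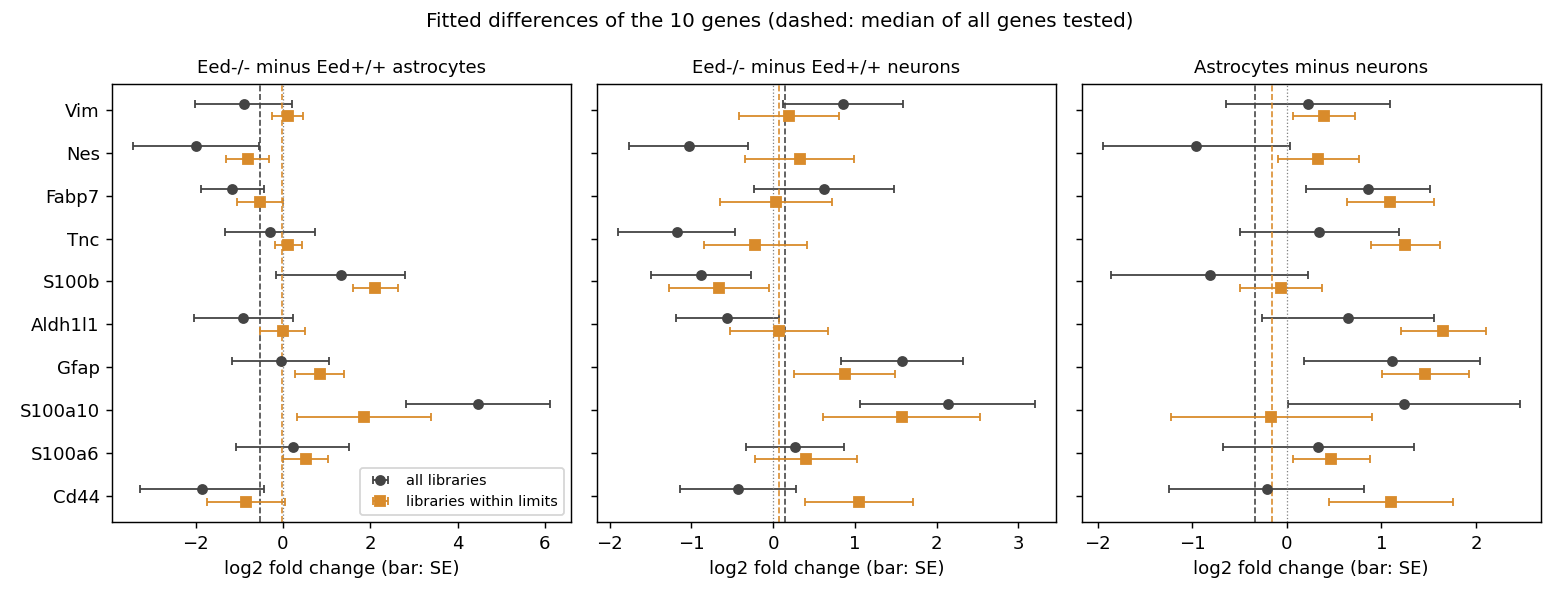
Fitted log2 fold changes of the 10 genes (points) with their standard errors (bars) in 3 comparisons, from all libraries (circles) and from libraries within the alignment limits (squares). Dashed lines mark the median of all genes tested. In astrocytes the square of S100b lies at 2.12 with a standard error of 0.52, and between astrocytes and neurons the squares of Aldh1l1, Gfap and Tnc lie between 1.25 and 1.66.

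Loss of Eed in the lacZ- cells was compared in 3 against 2 libraries. With edgeR, 0 of 11862 genes passed 0.05 (0% called) and 862 had an unadjusted p under 0.05, while DESeq2 called 26 genes and limma-voom 0. Of the 10 members, 0 passed by any of these tools. The members' log2 fold changes ran from -1.18 to 2.13 with standard errors of 0.60 to 1.07, and their median was -0.08 against 0.15 over the genes tested. Between the groups, 4 of the 10 members did not overlap, against 23.3% of the genes tested (under RLE scaling 3, all but S100a6, against 22.6%).

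The 4 were Gfap, S100a10, S100a6 and S100b. Gfap stood at 177 and 31.2 CPM in Eed+/+ neurons and at 305, 384 and 305 CPM in Eed-/- neurons, a log2 fold change of 1.58 ± 0.75 (unadjusted p = 0.055, adjusted p = 0.69, edgeR). The lower Eed+/+ value came from the poorly aligned replicate 2, and within the limits the difference was 0.88 ± 0.62. S100a10 stood at 9.12 and 0 CPM in Eed+/+ neurons and at 17.2, 47.7 and 17.0 CPM in Eed-/- neurons, a log2 fold change of 2.13 ± 1.07 (adjusted p = 0.70) and of 1.57 ± 0.96 within the limits. S100a6 stood at 93.9 and 99.9 CPM against 110, 126 and 144 CPM, and its log2 fold change of 0.27 ± 0.60 (0.40 ± 0.62 within the limits) was smaller than its error. S100b went the other way from its direction in astrocytes, at 121 and 144 CPM in Eed+/+ neurons and at 85.3, 51.3 and 98.2 CPM in Eed-/- neurons, a log2 fold change of -0.88 ± 0.61 (adjusted p = 0.76) and of -0.66 ± 0.61 within the limits. The 5 oligodendrocyte lineage markers summed to 2604 and 993 CPM in these Eed+/+ libraries and to 3742, 3374 and 1969 CPM in the Eed-/- libraries. These sums overlapped between the genotypes, and their part in the S100b values was not tested. Values within the limits in neurons rest on 1 Eed+/+ library, assumed to vary like the other groups.

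The remaining members overlapped between the genotypes in neurons. Fabp7 stood at 4443 and 1336 CPM in Eed+/+ neurons and at 5035, 6433 and 2445 CPM in Eed-/- neurons, and Vim at 429 and 96.8 CPM against 435, 679 and 379 CPM. Nes (80.0 and 300 CPM against 59.5, 95.5 and 152 CPM), Tnc (395 and 1024 CPM against 242, 230 and 573 CPM), Aldh1l1 (194 and 365 CPM against 225, 238 and 159 CPM) and Cd44 (39.2 and 165 CPM against 79.8, 85.7 and 82.5 CPM) each had their highest value in the poorly aligned Eed+/+ replicate 2. The count of calls in neurons turned on which Eed+/+ library was kept. Without the well aligned Eed+/+ replicate 1, so that replicate 2 stood alone for its group and was assumed to vary like the others, edgeR called 2601 of 12635 genes (20.6%), among them 3 of the 10 members, Gfap (log2 fold change 3.27, adjusted p = 0.011), Vim (2.23, adjusted p = 0.040) and S100a10 (adjusted p = 0.048). S100a10 had 0 reads in that lone library, so its fold is a bound, and against 3 reads there (9.36 CPM) its mean in Eed-/- neurons (27.3 CPM) was at least 2.92-fold higher. Without replicate 2, 1 gene was called and 0 of the members.

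The difference between the sorted populations was the next comparison. Over both genotypes, 2 of 13367 genes passed 0.05 (0.015%), neither of them a member, and the members' median log2 fold change (astrocytes minus neurons) was 0.34 against -0.34 over the genes tested. In Eed+/+ cells 1 gene was called (0.00748%), in Eed-/- cells 8 (0.0598%), and in the interaction of genotype with cell type 7 (0.0524%), with 0 members in each. Without the poorly aligned Eed-/- astrocyte replicate 4, the counts in Eed-/- cells and for the interaction fell to 0 and 1. No member separated the 10 astrocyte from the 5 neuron libraries, against 0.471% of genes tested. In the libraries within the limits (6 against 4) 0 genes passed by edgeR, with 1111 at an unadjusted p under 0.05, and 2 of 10 members did not overlap, against 3.54% of genes tested.

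Those 2 were Aldh1l1 and Tnc. Within the limits Aldh1l1 ranged from 273 to 1009 CPM in astrocytes and from 159 to 238 CPM in neurons, a log2 fold change of 1.66 ± 0.45 (unadjusted p = 0.0022, adjusted p = 0.50, edgeR). Tnc ranged from 669 to 1040 CPM in astrocytes and from 230 to 573 CPM in neurons (1.25 ± 0.36, adjusted p = 0.50). Gfap (1.46 ± 0.46, adjusted p = 0.50) and Fabp7 (1.09 ± 0.46, adjusted p = 0.58) were also higher in fitted value, and both overlapped between the populations. The sort used lacZ under a human GFAP promoter, and the part of this gate in the Gfap value was not tested. S100b had a fitted difference of -0.06 ± 0.43 between the populations over both genotypes within the limits, with values of -1.46 ± 0.62 in Eed+/+ cells and 1.34 ± 0.54 in Eed-/- cells within the limits. The interaction for S100b in these libraries was 2.80 ± 0.82 (unadjusted p = 0.0041, adjusted p = 0.9999, edgeR), which did not pass. Each of these values for Eed+/+ cells and for the interaction rests on 1 Eed+/+ neuron library, which was assumed to vary like the other groups. Over all 15 libraries the interaction for S100b was 2.05 ± 2.12 (unadjusted p = 0.34, edgeR) and its difference between the populations -0.82 ± 1.04. Across the same 15, Aldh1l1 (0.65 ± 0.91), Gfap (1.11 ± 0.93), Tnc (0.35 ± 0.84) and Fabp7 (0.86 ± 0.65) were smaller in fitted value or less precise.

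**Figure D3:**
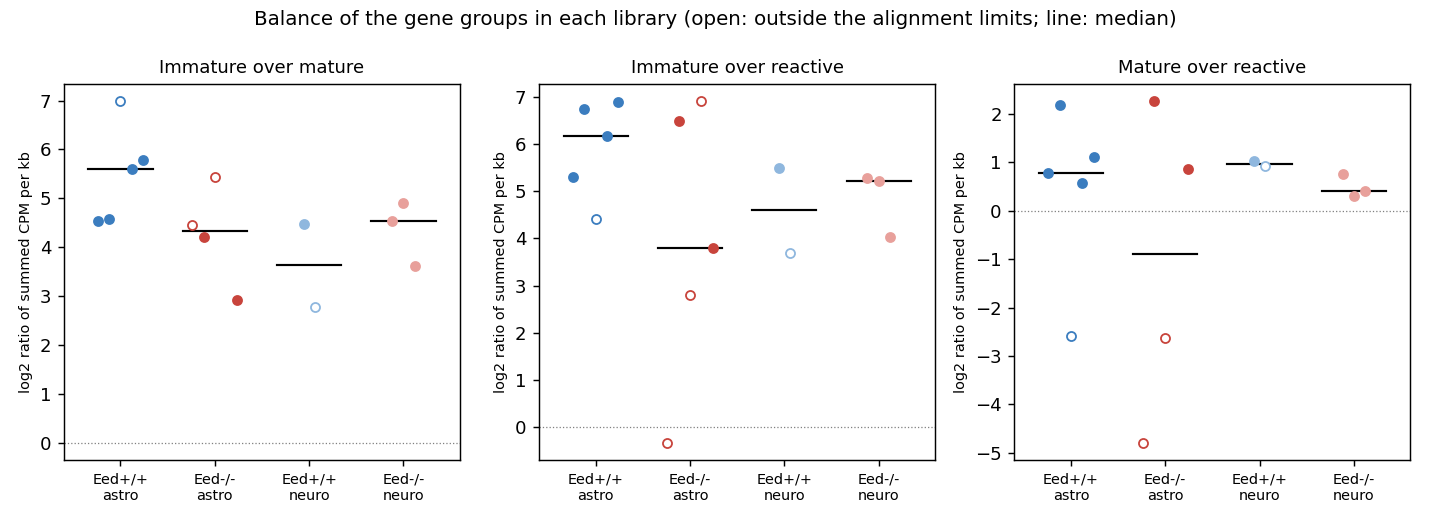
Balance of the gene groups in each library, as the log2 ratio of the summed CPM per kilobase (vertical axes) by group (horizontal axes). Filled points are libraries within the alignment limits, open points are those outside, and lines are group medians; Eed-/- astrocyte replicate 4 has no ratio to the mature genes, which were at 0 there. Well aligned Eed-/- astrocytes lie at 2.93 and 4.22 for immature over mature, below the well aligned Eed+/+ astrocytes at 4.53 to 5.78.

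The balance of immature against mature genes was read as the log2 ratio of their summed CPM per kilobase in each library, with no test, since it is a score over chosen members. In Eed+/+ astrocytes it was 4.53, 4.57, 7.0, 5.60 and 5.78, a mean of 5.50 ± 1.02 (SD, n = 5). In Eed-/- astrocytes it was 4.45, 4.22, 5.43 and 2.93 in the 4 libraries with a value (4.26 ± 1.03), and in the fourth replicate the mature genes were at 0 reads. Within the limits the Eed-/- values (2.93 and 4.22) lay below the 4 Eed+/+ values. Neurons stood at 4.48 and 2.78 in Eed+/+ cells and at 4.53, 4.90 and 3.62 in Eed-/- cells. Immature genes thus outweighed mature genes in all 14 libraries with a ratio.

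Per kilobase, that weight came mostly from Fabp7. Without it, the log2 ratio of Vim, Nes and Tnc to the mature genes was -0.50, -0.67, 2.84, 0.43 and 0.39 in Eed+/+ astrocytes, 1.48, -0.88, 0.92 and -0.85 in the 4 Eed-/- astrocyte libraries with a value, and between -0.44 and 0.10 in neurons. In the well aligned Eed-/- astrocytes the 2 values (-0.88 and -0.85) lay below the 4 Eed+/+ values. Not divided by length these well aligned genotypes overlapped, with the Eed-/- values at -0.13 and 0.01 and the lowest Eed+/+ value at -0.09. On that scale the ratio without Fabp7 reached 3.18 in Eed+/+ astrocytes and lay between 0.26 and 1.40 in neurons. As a difference of mean log2 levels it lay between 0.36 and 3.49 in Eed+/+ astrocytes, -0.37 and 0.68 in Eed-/- astrocytes, and 0.03 and 1.38 in neurons. On these 2 scales most libraries kept an immature lead without Fabp7.

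Immature over reactive genes stood at 5.31, 6.76, 4.42, 6.17 and 6.91 in Eed+/+ astrocytes and at -0.34, 6.49, 2.80, 6.93 and 3.79 in Eed-/- astrocytes. The groups overlapped, also within the limits, and their means were 5.91 ± 1.04 and 3.93 ± 2.96 (SD, n = 5 each). The lowest value, in Eed-/- replicate 1, came from the library with the most microglia transcripts, where S100a6 alone made up the reactive share of the summed level per kilobase, 54.7%. Counting Gfap as reactive gave means of 5.13 ± 0.68 in Eed+/+ and 3.42 ± 2.76 in Eed-/- astrocytes, with overlap. As a difference of mean log2 levels the same balance did not overlap, at 3.21 to 4.28 in the 5 Eed+/+ and 0.29 to 2.96 in the 5 Eed-/- libraries. This is a score over chosen genes for which no test was made. Its lowest value came from the poorly aligned Eed-/- replicate 1, where Nes and Tnc had 0 reads. On the same scale without Gfap the genotypes overlapped, at 3.71 to 5.20 against 0.88 to 3.82. Mature over reactive genes stood within the limits at 0.78, 2.19, 0.57 and 1.12 in Eed+/+ astrocytes and at 2.28 and 0.86 in Eed-/- astrocytes, which overlapped. Outside the limits they stood at -2.58 in Eed+/+ replicate 3 and at -4.79 and -2.63 in Eed-/- replicates 1 and 3, so in these 3 libraries the summed reactive level outweighed the mature one. As a difference of mean log2 levels, Eed-/- replicate 3 turned to 1.71. In its sum the reactive level lay almost wholly in S100a10, with S100a6 at 0 and Cd44 at 20.7 CPM.

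**Figure D4:**
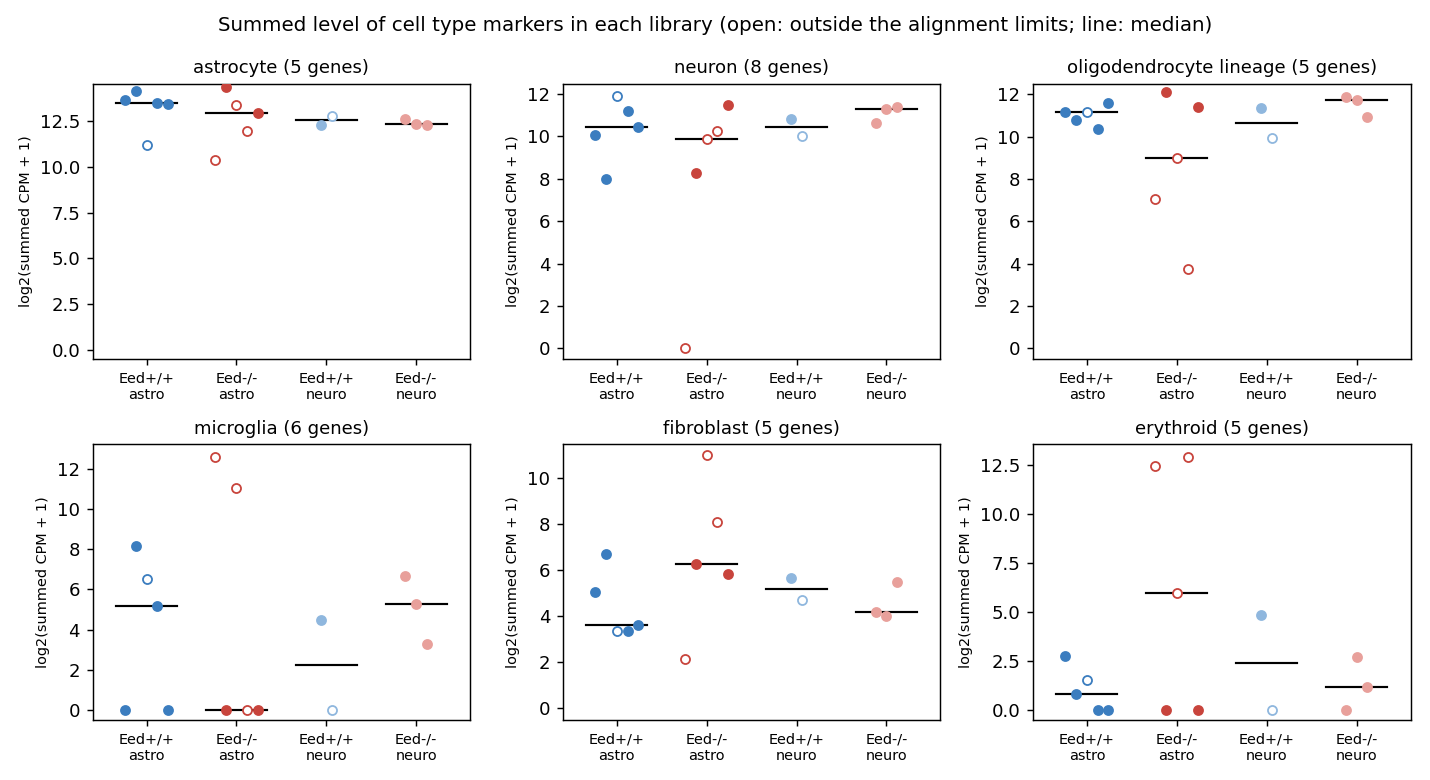
Summed level of 6 sets of cell type markers in each library, as log2(summed TMM-scaled CPM + 1) on the vertical axes by group on the horizontal axes. Filled points are libraries within the alignment limits, open points those outside, and lines are group medians. In each of the 3 open Eed-/- astrocyte libraries at least 1 of the microglia, fibroblast and erythroid sums lies between 2037 and 7801 CPM, and astrocyte markers lie between 4992 and 7041 CPM in the neuron libraries.

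Other genes of the same programmes were followed as lists, tested over all libraries. Of 15 further genes of immature glia and radial glia (such as Sox2, Hopx and Slc1a3), 15 were tested and 0 rose or fell in any of the 6 comparisons, with a median log2 fold change of -0.40 in astrocytes on loss of Eed, against -0.54 over all genes tested. Of 20 genes of mature astrocytes (such as Aqp4, Gjb6 and Slc1a2), 20 were tested and 0 were called, with a median of -0.41 in the same comparison. Between astrocytes and neurons over both genotypes the medians were 0.50 for the immature and 0.79 for the mature list, against -0.34 over all genes tested. The mature list summed to between 33102 and 58462 CPM in the well aligned Eed+/+ astrocytes, to 64450 and 24323 CPM in the well aligned Eed-/- astrocytes, and to between 9929 and 25181 CPM in neurons. In the poorly aligned astrocyte libraries it summed to 7809 CPM (Eed+/+ replicate 3) and to 5310, 28836 and 9083 CPM (Eed-/- replicates 1, 3 and 4).

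The reactive list was at low levels. Of 34 further reactive genes, 8 passed the filter in the astrocyte comparison and 13 in the neuron comparison, and 0 were called in any comparison. The list summed to between 447 and 937 CPM in Eed+/+ astrocytes and to between 294 and 995 CPM in Eed-/- astrocytes. Lcn2, Steap4, Slc10a6 and C3, which include well-known reactive markers, had 0 reads in each of the 15 libraries, and 3 reads would have been 1.12 to 9.36 CPM. The median log2 fold change of the tested reactive genes was -0.40 in astrocytes and 0.64 in neurons, against -0.54 and 0.15 over all genes tested.

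A further 3 smaller lists set the members among their partners. Of 11 other intermediate filament and lamina genes, 5 were tested in astrocytes and 7 in neurons, and 0 were called. Des and Prph, the muscle and peripheral nerve counterparts of Vim, and Nefh were at 0 reads in astrocytes of both genotypes. Of 17 genes of the S100 family and annexins, 6 were tested in astrocytes and 8 in neurons, and 0 were called, and S100a8 and S100a9 were at 0 reads in each group. Of 17 matrix and receptor partners of Tnc and Cd44, 12 and 14 were tested and 0 were called. The matrix list summed to between 11228 and 18014 CPM in well aligned Eed+/+ astrocytes and to 12656 and 7511 CPM in well aligned Eed-/- astrocytes. Before adjustment, 1 of the 66 tested genes of the 6 lists lay under 0.05 in the genotype comparison of astrocytes (1.52%, against 1.21% of all genes tested) and 8 of 77 in that of neurons (10.4%, against 7.27%).

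Likeness of level was read over the 10 well aligned libraries as Pearson's r of log2(TMM-scaled CPM + 1), as a description, since the libraries share depth and cell type and the best of all tested genes was taken. The closest genes were Fads1 (r = 0.99) and Entpd2 (0.98) for Aldh1l1, Tspan7 (0.99) and Csdc2 (0.98) for Fabp7, and Slc4a4 (0.92) and 2610507B11Rik (0.93) for Tnc. For Nes they were Ano10 (0.93) and Nr2e1 (0.92), for Vim Ssbp4 (0.96) and Acot1 (0.96), and for Gfap Tapbp (0.92) and Chrm2 (0.90). For Cd44 they were Cap2 (0.98) and Cops6 (0.96), for S100b BC037039 (0.96) and Ddx19a (0.93), and for S100a10 Arpc1a (0.96) and Lysmd4 (0.94).

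Among the members themselves the same measure tied Fabp7 to Aldh1l1 (r = 0.87), Vim (0.82) and Cd44 (0.73), and Cd44 to Nes (0.78). The 3 S100 genes ran apart from these, with r between -0.46 and -0.45 against Fabp7 and between -0.70 and -0.49 against Cd44. Gfap was not close to any other member, with its highest values at 0.53 (Aldh1l1 and Tnc). Aldh1l1, a mature gene, thus ran closer to Fabp7 than the immature genes Nes (0.53) and Tnc (0.45) did.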

How the data were processed

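RNA-seq libraries (16) of sorted P4 neocortical cells were used, 15 of them with a group in the labels. The authors prepared Smart-Seq v2 libraries and aligned reads to mm10 (GRCm38) with STAR. No source used here names the annotation release. The deposited values are raw read counts per gene, neither normalized nor pooled over replicates. Reads on the first strand made up 46.7 to 52.7% of stranded reads in the grouped libraries, so the unstranded column was used, in which a gene and its antisense partner cannot be told apart. Lines of totals (4 per file) stayed out of library sizes. Reads outside genes made up 8.55 to 71.6% of uniquely aligned reads. Of 53379 identifiers, 53274 matched GENCODE mouse release M21 for symbols, coordinates and merged exon lengths. The study set some libraries aside without naming them, so all 15 were kept, and the 10 with at least 60% and 1000000 uniquely aligned reads formed an alternative.

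Counts were tested with edgeR 4.0.16 (R 4.3.3; TMM, filterByExpr, robust quasi-likelihood F test, two-sided) with Benjamini-Hochberg adjustment over all genes tested at 0.05. Genotype was fitted within astrocytes and within neurons, and cell type and the interaction over all 15 libraries. Alternatives were DESeq2 1.42.0, limma-voom 3.58.1 with sample quality weights, RLE scaling, no filter, a mean count above 10, libraries within the limits, each library left out, a replicate block, the run of library numbers, other sets of libraries in the fit and, added after the data were seen, other scalings for overlap between groups. All 10 members passed the filter in every comparison, so the exact permutation test planned for members that fail it was run 0 times. The tests were tried on simulated counts first. The spread between libraries of a group that edgeR estimated (common biological coefficient of variation) was 1.38 for genotype in astrocytes and 0.58 in neurons. It was 1.28 for the cell type and interaction fits. At such spreads a count of 0 genes called does not show that no gene differed. Members and lists were chosen with earlier results of these data known. From each list the rule named up to 3 genes per direction past 0.05, and other genes of the lists are named as examples chosen for what they are known to mark or because they had 0 reads. For likeness the rule named the 2 closest genes to each member. Those of S100a6, and 1 gene of the marker lists, which was left out of its sum, are not reported here. Floors of 3 counts cover counting error only, since reads without molecular identifiers are not independent molecules. Each library came from an individual animal.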

Additional observations from a re-analysis of the deposited data

Results flagged for a closer look

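There were 5 values that stood apart from the other 4 libraries of their group by Dixon's criterion at 95%, out of 20 groups of 5 libraries examined. Chance flags about 1 in 20 groups. Nes in Eed+/+ astrocyte replicate 2 was 224 CPM, against 104 to 138 CPM in the other 4. Aldh1l1 in Eed-/- astrocyte replicate 2 was 1009 CPM, against 0 to 273 CPM. Cd44 in the same Eed-/- library was 175 CPM, against 0 to 20.7 CPM. This library was well aligned, while Eed-/- replicates 1, 3 and 4, among those it was set against, were not. In Eed+/+ astrocytes Aldh1l1 reached 920 CPM and Cd44 242 CPM. S100a10 in Eed+/+ astrocyte replicate 4 was 20.3 CPM, against 0 to 5.76 CPM. S100a10 in Eed-/- astrocyte replicate 3 was 570 CPM, against 0 to 32.4 CPM, and that library also held fibroblast markers at 2037 CPM and microglia markers at 2143 CPM, whose part in the value was not tested.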

How the results depend on the processing

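The counts of genes called by edgeR over all libraries (0 for genotype in astrocytes, 0 for genotype in neurons, 2 for cell type over both genotypes, 1 in Eed+/+ cells, 8 in Eed-/- cells and 7 for the interaction) depended on the processing, and a member was called at 0.05 only without Eed+/+ neuron replicate 1 (Gfap, Vim and S100a10 in neurons). DESeq2 called 1 gene for genotype in astrocytes, 26 in neurons, 5 for cell type over both genotypes and 8 in Eed+/+ cells. Limma-voom with sample quality weights called 0 for cell type over both genotypes, 0 in Eed+/+ cells, 5 in Eed-/- cells and 0 for the interaction. RLE scaling called 6 in Eed+/+ cells and 21 for the interaction. Without a filter on low counts the 6 counts were 5, 127, 0, 2, 3 and 2. With a mean count above 10 they were 24 for genotype in astrocytes, 1 for cell type over both genotypes, 3 in Eed+/+ cells and 13 in Eed-/- cells. Within the alignment limits 1 gene was called for genotype in neurons and 0 in each of the 3 cell type contrasts and the interaction, and DESeq2 within the limits, added after the data were seen, called 14 for genotype in astrocytes. The fit over all 15 libraries called 46 for genotype in astrocytes and 3 in neurons, with S100a10 at an adjusted p of 0.17 in astrocytes. The fit on the Eed+/+ groups alone called 0 genes for cell type in Eed+/+ cells. With 1 library left out at a time the counts ranged from 0 to 1, 0 to 2601, 0 to 5, 0 to 5, 0 to 26 and 1 to 12. The cell type counts over both genotypes and in Eed-/- cells reached 5 and 26 without Eed-/- astrocyte replicate 5, and the neuron count reached 15 without Eed-/- neuron replicate 1. The cause of these shifts was not tested.

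Same-numbered libraries of the 2 genotypes came from different animals, so a block on their number pairs no animals. Whether same-numbered astrocyte and neuron libraries of 1 genotype shared an animal was not established, and the main fits did not pair them. Same-numbered libraries deviated together weakly at most. The correlation of their deviations from the group means ran from -0.03 to 0.16 over the 5 pairs of astrocyte libraries, from -0.25 to 0.10 over the 2 pairs of neuron libraries, and from -0.05 to 0.12 over the 5 pairs of astrocyte with neuron libraries, and of the 10 astrocyte libraries 3 resembled their own number most, as did 3 of the 6 Eed-/- libraries numbered in both cell types. With the replicate block, edgeR called 0 genes for genotype in astrocytes, 0 in neurons, 0 for cell type over both genotypes, 0 in Eed+/+ cells, 5 in Eed-/- cells and 2 for the interaction, and S100a6 stood at -1.30 in astrocytes and at -0.17 between the cell types.

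The log2 fold changes of some members changed sign, each without passing 0.05. In the genotype comparison of astrocytes Gfap (-0.05) became 0.02 with DESeq2, 0.02 with RLE scaling, 0.31 with limma-voom, 0.84 within the limits, 0.89 with DESeq2 within the limits and 0.05 with a term for the 2 runs of library numbers. Within the limits Vim became 0.11 and Tnc 0.12, and with DESeq2 within the limits Vim became 0.14, Tnc 0.16 and Aldh1l1 0.03. S100a6 became -0.78 with limma-voom. In neurons Nes became 0.33, Aldh1l1 0.07 and Cd44 1.05 within the limits, and Cd44 became 0.44 with limma-voom. Between astrocytes and neurons Nes became 0.33, S100a10 -0.17 and Cd44 1.11 within the limits, and Vim became -0.04 and S100a6 -0.58 with limma-voom. With 1 library left out, the genotype values in astrocytes ranged from -0.82 to 0.66 for Gfap, from -0.60 to 0.00 for Tnc and from -0.49 to 0.53 for S100a6. Those in neurons ranged from -1.69 to 0.33 for Nes, from -0.95 to 0.07 for Aldh1l1 and from -1.14 to 1.05 for Cd44. Between cell types they ranged from -0.14 to 0.94 for Vim, from -0.12 to 0.91 for Aldh1l1, from -0.23 to 4.08 for S100a10 and from -1.42 to 0.47 for Cd44. Of 250 comparisons of a member's fold change with an alternative other than a left-out library, 227 kept their direction and their side of the threshold.

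Not divided by length, the mean log2 ratio of immature to mature genes became 3.95 in Eed+/+ astrocytes, 3.09 in Eed-/- astrocytes and 3.12 in Eed-/- neurons. As a difference of mean log2 levels it became 2.58, 1.49, 1.76 and 1.54 in the 4 groups (astrocytes first, Eed+/+ before Eed-/-), and that of immature to reactive genes became 4.31 in Eed+/+ astrocytes and 2.96 in Eed-/- neurons. Depth limits the 5 poorly aligned libraries most, where 3 reads correspond to between 5.08 and 9.36 CPM.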

Other observations

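One library of Eed-/- cells carried conflicting cell type labels and was placed in no group. It held 221456 gene counts, with 17.7% of reads uniquely aligned and 2397 detected genes. In plain CPM, Fabp7 stood at 10779, Aldh1l1 at 1617, S100a6 at 294 and Tnc at 72.2. Vim had 3 reads and Nes 1, and Gfap, S100b, S100a10 and Cd44 had 0, where 3 reads correspond to 13.5 CPM.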
